A study of Ambystoma californiense with 99 samples.

Results

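The genes described here are DGAT2 and APOB, followed through every library of whole brain and leg muscle from tiger salamanders that were heated acutely or left as controls. They were found by name: every feature of the deposited tables whose name is DGAT2 or APOB was taken, which gave 2 genes on 3 of 23251 features. AMEXTC_0340000054555 carries most DGAT2 reads and is called DGAT2 or the main DGAT2 row. AMEXTC_0340000242891 is called the minor DGAT2 row, and AMEXTC_0340000017499 is APOB. The pair was selected on the difference in level between heated and control leg muscle, so that contrast is given as a description with no test. Measures outside it were tested. The relation of the genes within muscle groups was tested too, and there the heated groups share values with that contrast. The muscle tests of sex and of control genotypes, and the main test between tissues, came from fits that hold the heated libraries as well. The control muscle levels in these tests also belong to the contrast the pair was chosen on.

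DGAT2 is an enzyme of the endoplasmic reticulum and of lipid droplets. It joins a fatty acid to diacylglycerol, the last step in making triglyceride, the storage fat of cells. DGAT1, a protein of a different family, performs the same reaction. APOB is the very large structural protein around which lipoprotein particles are built. In mammals it is made mainly by liver and intestine, where the transfer protein MTTP loads it with triglyceride before secretion, and in muscle and other tissues lipoprotein lipase (LPL) then releases fatty acids from the particles.

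The animals were California tiger salamanders (CTS), animals labelled BTS, which is read here as barred tiger salamander, and F1 hybrids of the pair. Heated animals of each genotype had been warmed until they stayed on their backs for 30 seconds, and controls had not. Brain libraries came from 5 control and 5 heated CTS, 5 control and 6 heated BTS, and 13 control and 10 heated F1 animals. Muscle libraries came from 5 control and 5 heated CTS, 5 control and 6 heated BTS, and 13 control and 12 heated F1 animals. Another 4 libraries per tissue came from backcrosses to BTS (BTSbc) or to CTS (CTSbc) and are given as single values. Ages are not in the labels, the organism is labelled Ambystoma californiense for every sample, and each library is a separate animal within its tissue. A few titles go against the tags used for grouping. Animal 76 is titled BTS but tagged CTS, all 4 backcross animals are tagged as such but titled otherwise (12 and 26 as BTS, 30 and 84 as F1), and animal 64 is a control by its brain labels and heated by its muscle labels.

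The deposited values are read counts. In brain, 43 libraries held 3213005 to 13506066 counted reads and the heated F1 animal 16 held 5418. In muscle, 45 libraries held 1232774 to 20068304 and the heated F1 animal 11 held 66186. A level is given in reads per 1000000 counted reads after trimmed-mean (TMM) scaling between libraries (CPM). A library in which a gene has 0 reads still allows a level equal to 3 reads, which is 0.222 to 0.934 CPM in the deep brain libraries and 0.149 to 2.43 CPM in the deep muscle libraries before scaling. Neuron markers summed to at least 9776 CPM in every deep brain library and skeletal muscle markers to at least 112351 CPM in every deep muscle library. The brain library of the heated CTS animal 7 also held 1836 CPM of skeletal muscle markers, against at most 277 CPM in the other brain libraries outside animals 2, 7 and 13.

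In leg muscle DGAT2 was close to the limit of detection in nearly all animals and high in 3 heated ones. The main row stood at 319 CPM in the heated F1 animal 2 (1800 reads), at 133 CPM in the heated CTS animal 7 (1259 reads) and at 59.7 CPM in the heated CTS animal 13 (593 reads). The 23 controls ran from 0 to 1.82 CPM with a median of 0.315 CPM, and the other 19 heated libraries of full depth from 0 to 0.858 CPM with a median of 0.310 CPM. Apart from those 3 libraries, heated and control muscle therefore overlapped over their whole heated range. In reads, the other 20 heated libraries had 0 to 12 and the controls 0 to 11. The 3 libraries held 3652 of the 3842 DGAT2 reads in muscle, which is 95.1%, and 8.16% of all counted reads.

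By genotype, the heated CTS values of DGAT2 were 0, 133, 59.7, 0 and 0.277 CPM in animals 4, 7, 13, 14 and 76, and the CTS controls 57, 63, 66, 77 and 83 had 0.0709, 0.543, 1.82, 0.0683 and 0.0915 CPM. The CTS means were 0.518 ± 0.753 CPM in controls and 38.6 ± 58.9 CPM after heat (SD, n = 5 and 5), with 2 of the 5 heated animals above the highest control. In BTS the controls had 0 to 0.606 CPM (median 0.236) and the heated animals 0.308 to 0.757 CPM (median 0.481), with means of 0.268 ± 0.222 and 0.475 ± 0.165 CPM (SD, n = 5 and 6). Only animal 90 of the 6 heated BTS animals was above the highest BTS control. The F1 controls ran from 0.0743 to 1.14 CPM (median 0.598, n = 13) and the 11 heated F1 libraries of full depth from 0 to 319 CPM (median 0.330), where the single library above the controls was that of animal 2. The median of the heated F1 animals was thus below that of their controls, while their mean, 29.3 ± 95.9 CPM (SD, n = 11), rested on 1 animal.

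APOB had the same 3 libraries at its top, in another order. Animal 7 had 103 CPM (972 reads), animal 13 had 33.7 CPM (335 reads) and animal 2 had 18.6 CPM (105 reads). The controls ran from 0 to 3.29 CPM (median 0.208) and the other 19 deep heated libraries from 0 to 3.02 CPM (median 0.143). The 3 libraries held 1412 of 1677 APOB reads, or 84.2%. The next highest heated library was that of F1 animal 22 with 37 reads, and the highest controls, F1 animals 24 and 25, had 28 and 34.

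The heated CTS animals 4, 7, 13, 14 and 76 had 0, 103, 33.7, 0 and 0.739 CPM of APOB, and the CTS controls 57, 63, 66, 77 and 83 had 0.142, 0.679, 0.545, 0.0683 and 0.0915 CPM, so that 3 of 5 heated CTS animals were above the highest CTS control, animal 76 by a small margin. In BTS 4 of 5 controls had no APOB read and the other, animal 60, had 4 reads (0.420 CPM). The heated BTS animals ran from 0.0517 to 1.28 CPM (median 0.314, 1 to 15 reads), and animals 38 and 53 exceeded the highest BTS control. Males among these BTS animals were the controls 68, 74 and 80 and the heated animal 90, and the rest were females. The F1 controls ran from 0 to 3.29 CPM (median 0.678) and the 11 heated F1 libraries of full depth from 0 to 18.6 CPM (median 0.143), with animal 2 alone above the controls.

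**Figure D1:**
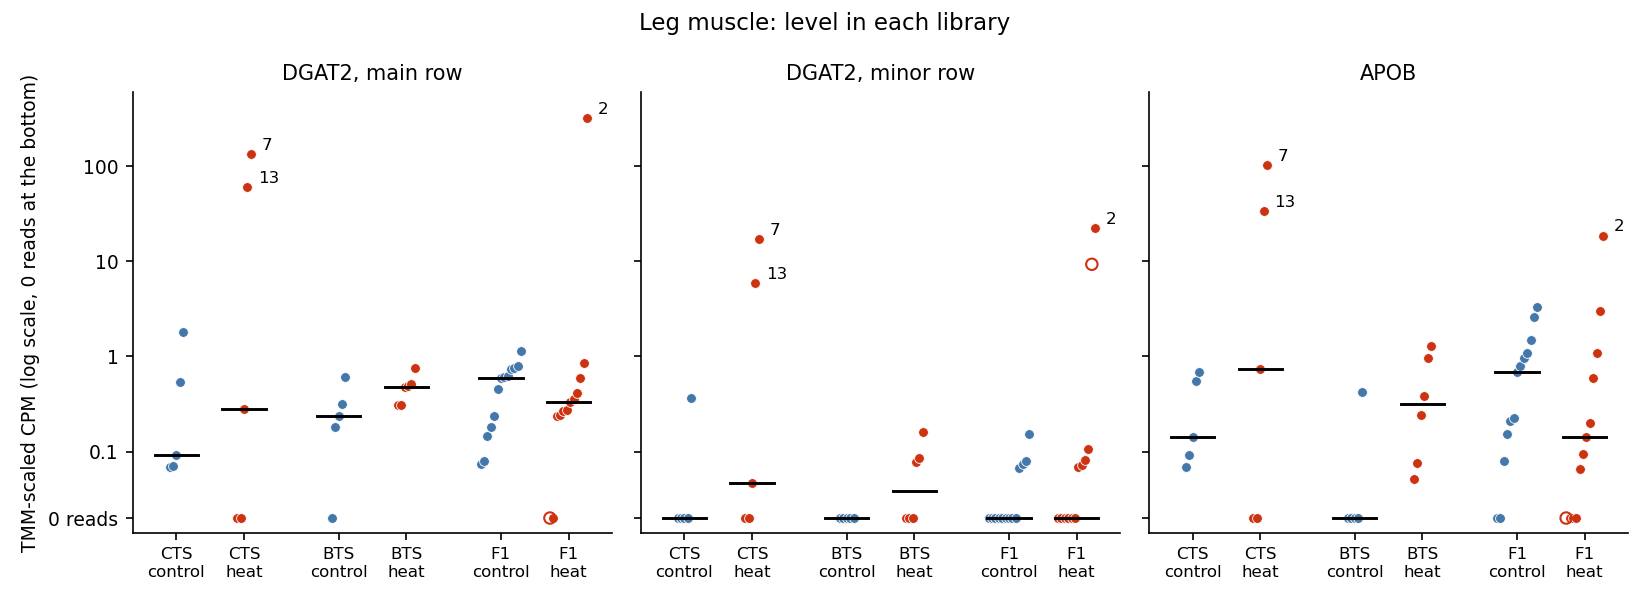
Level of the main DGAT2 row, the minor DGAT2 row and APOB in each leg muscle library, in TMM-scaled CPM on a log axis, by genotype and treatment. Filled points are libraries of full depth, the open circle is the shallow library, black bars are medians over libraries of full depth, and libraries with 0 reads lie at the bottom; animals 2, 7 and 13 stand between 59.7 and 319 CPM for the main DGAT2 row, while all other libraries are at 1.82 CPM or below.

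The minor DGAT2 row followed the main one. It had 127, 161 and 58 reads in the muscle of animals 2, 7 and 13 (22.5, 17.0 and 5.84 CPM) and at most 2 reads in any other of the 46 muscle libraries from CTS, BTS and F1 animals. These 3 libraries held 346 of its 364 reads there, or 95.1%. Among the backcross animals, the heated BTSbc animal 30 had 4 reads of it in muscle and the others 0. The minor row took 8.65% of all DGAT2 reads in muscle (95% exact binomial interval 7.82 to 9.54) and 9.28% in brain (8.83 to 9.75). In the muscle of animals 2, 7 and 13 its share was 6.59% (5.52 to 7.79), 11.3% (9.74 to 13.1) and 8.91% (6.83 to 11.4), inside the span of 4.86% to 13.0% seen over single brain libraries. These intervals cover counting error only. Reads that match both rows may have been divided or dropped when the authors counted them, so the split between the rows is uncertain.

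The fitted muscle folds are set by the same libraries. Averaged over the 3 genotypes, heated animals were higher by 4.57 for DGAT2 and by 3.86 for APOB on the log2 scale. Of all 12554 muscle features tested in that contrast, 0.757% were called in either direction and 0.223% as higher (adjusted p under 0.05 in the quasi-likelihood test of edgeR). In CTS the folds were 7.62 and 8.61, in F1 5.71 and 1.17, and in BTS 0.37 and 1.80, beside 0.39%, 0.119% and 0.0159% of features called in CTS, F1 and BTS. The fit held a term for sex. Without that term the CTS folds were 6.65 for DGAT2 and 6.71 for APOB, and the high CTS libraries 7 and 13 come from males, as does 1 of the 5 CTS controls. The BTS folds without the sex term were 0.68 for DGAT2 and 2.45 for APOB, and males were more frequent among the BTS controls than among the heated BTS animals.

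When the muscle library of F1 animal 2 was left out, the F1 folds became -0.46 for DGAT2 and -0.57 for APOB, and the DGAT2 fold over genotypes fell to 2.11. Without CTS animal 7 the CTS folds were 6.21 and 7.10, since animal 13 remained. A fit without the muscle libraries of animals 2, 7 and 13, which was added after the data were seen, gave folds over genotypes of -0.61 for DGAT2 and 0.42 for APOB. In that fit the CTS folds were -2.25 and -0.07, the F1 folds -0.28 and -0.38, and the BTS folds 0.72 and 1.72. The count of features called over genotypes went from 95 to 8, or 0.0637% of those tested. Such a drop was not particular to these libraries. The count was 12 without BTS control 68 alone and 180 without BTS control 80.

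**Figure D2:**
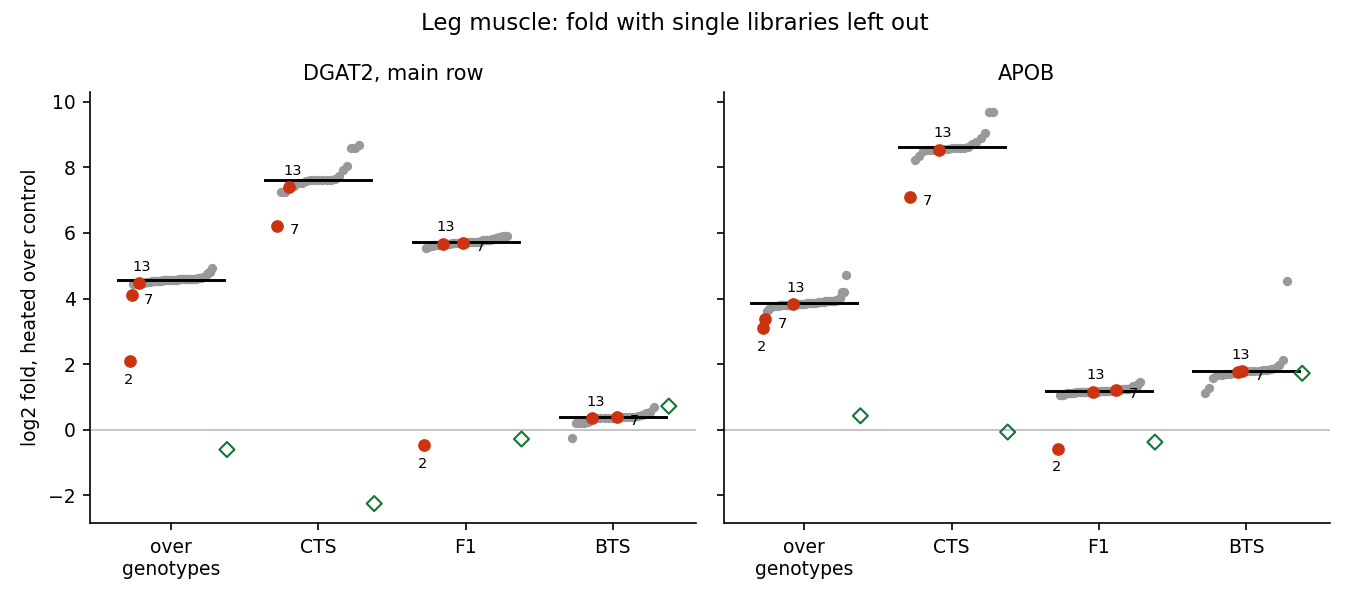
Log2 fold of heated over control leg muscle for DGAT2 (main row) and APOB, over genotypes and in CTS, F1 and BTS. Black bars are the folds from all libraries and grey points the folds with 1 library left out. Red points are the folds without animal 2, 7 or 13, and green diamonds the folds without all 3 of these libraries. The DGAT2 fold over genotypes goes from 4.57 to -0.61 and the CTS fold from 7.62 to -2.25. The heated CTS libraries left then had at most 0.277 CPM of DGAT2.

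The 3 libraries also stood apart in their scaling and in some markers of other cell types. Their TMM factors of 0.667, 0.627 and 0.495 (animals 2, 7 and 13) were the lowest of the deep muscle libraries, with 0.739 to 1.36 in the other 42. Before this scaling, as CPM of the library total, DGAT2 was 212, 83.5 and 29.5 CPM there and APOB 12.4, 64.5 and 16.7 CPM. Adipocyte markers summed to 766, 1787 and 2022 CPM of the library total in animals 2, 7 and 13, against 307 to 1420 CPM in the others, and nearly all of this was GPD1, a glycerol phosphate dehydrogenase that muscle also makes (752, 1774 and 2016 CPM). PPARG, the transcription factor of fat cells, had 4.72, 2.32 and 0.548 CPM of the library total (40, 35 and 11 reads) against at most 0.939 CPM in the others. After TMM scaling these were 7.08, 3.70 and 1.11 CPM against at most 0.852 CPM, so animal 13 was above the others on the scaled level alone. The remaining members stayed within the range of the other libraries, except for CIDEC in animal 7: the lipase lipe had 4.36, 7.70 and 3.79 CPM of the library total (0 to 14.3 in the others), the adipsin gene CFD 3.54, 0.531 and 0.199 CPM (0 to 5.68), and CIDEC, a lipid droplet protein, 1.30, 2.39 and 0.747 CPM (0 to 2.24). The transcription factor cebpa.S had no read in any of the 3. Connective tissue and endothelium markers summed to 694, 1543 and 496 CPM against 87.0 to 963 CPM, so animal 7 alone was above the others. Most of this was the collagen gene COL3A1 (631, 1441 and 448 CPM against 37.7 to 718 CPM). The endothelial members CDH5 (8.73, 16.5 and 7.28 CPM) and KDR (4.72, 4.58 and 2.24 CPM) were below the medians of the others, 28.7 and 9.62 CPM. Both PECAM1 rows were below their medians as well, all as CPM of the library total. The part of these cell types in the DGAT2 and APOB levels was not tested. In bulk tissue a larger number of cells of a type and more RNA per cell cannot be told apart.

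Markers of the organs that make APOB in mammals summed, as CPM of the library total, to levels within the range of the other muscle libraries, while 1 hepatocyte marker, RBP4, was above it. Not every listed marker gene had a feature of its name: 23 of 35 did for hepatocytes, 4 of 12 for enterocytes and 6 of 12 for adipocytes. Listed genes without such a feature could not be looked at, so the sums cover part of each list. Hepatocyte markers summed to 32.8, 22.0 and 19.2 CPM of the library total in animals 2, 7 and 13, within the 8.97 to 45.0 CPM of the others. Of their 28 features 18, 18 and 13 had no read, among them prothrombin (F2) and the fibrinogen chain fgb.S in all 3 libraries. RBP4 made up most of the sum, with 18.4, 15.1 and 13.7 CPM of the library total against 1.75 to 12.9 CPM in the others. Enterocyte markers summed to 0.354, 0.0664 and 0.0498 CPM against 0 to 3.28 CPM in the others. Epidermis markers summed to 123, 127 and 111 CPM (63.4 to 883 in the others), and immune cell markers to 68.5, 22.2 and 9.32 CPM (21.9 to 302). Skeletal muscle markers summed to 146337, 126970 and 151933 CPM, inside the span of 112351 to 214074 CPM of the other libraries. Single members lay outside their own span. The myosin gene myh4 had 1.42, 17.8 and 73.6 CPM of the library total against 58.7 to 2921 CPM in the others, so animals 2 and 7 were below the span and animal 13 inside it. In animal 7 ckm.L had 28882 CPM against at least 33413 CPM, and in animal 13 the main tnnc2 row had 17978 CPM against at most 17467 CPM. All of these are CPM of the library total. Since the TMM factors of animals 2, 7 and 13 were the lowest, TMM scaling would raise their markers against the others. A place within or below a span therefore holds for the library total alone.

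Whether DGAT2 and APOB followed each other over animals was looked at within groups. Pearson's r of their log2 levels was computed within the 3 muscle groups of at least 6 deep libraries, so that the difference between group means did not enter. The heated levels themselves had entered the choice of the pair. In the 13 F1 controls r was -0.456 (permutation p = 0.117, adjusted over the 3 relations 0.176) and Spearman's rho -0.583 (p = 0.0399, adjusted 0.120), and without animals 49 and 52, the farthest from the median of DGAT2, r was -0.668. In the 11 heated F1 libraries r was 0.788 (permutation p = 0.0261, adjusted 0.0783) and rho 0.431 (adjusted p = 0.283), and without animals 2 and 67, chosen in the same way, r was -0.0552. In the 6 heated BTS animals r was 0.0121 (exact permutation p = 0.972, adjusted 0.972), and 0.810 over the 4 left without animals 90 and 20. None of the 3 passed the adjusted threshold of 0.05 with a prior count of 2 on the log2 scale. With a prior count of 0.5 the relation in heated F1 muscle passed it (r = 0.737, permutation, adjusted p = 0.0479). At either prior count that relation rested on animals 2 and 67, which were left out together. The height of animal 2 in both genes was part of what the pair was chosen on. The p-values of the heated F1 group therefore cannot decide whether the genes follow each other.

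**Figure D3:**
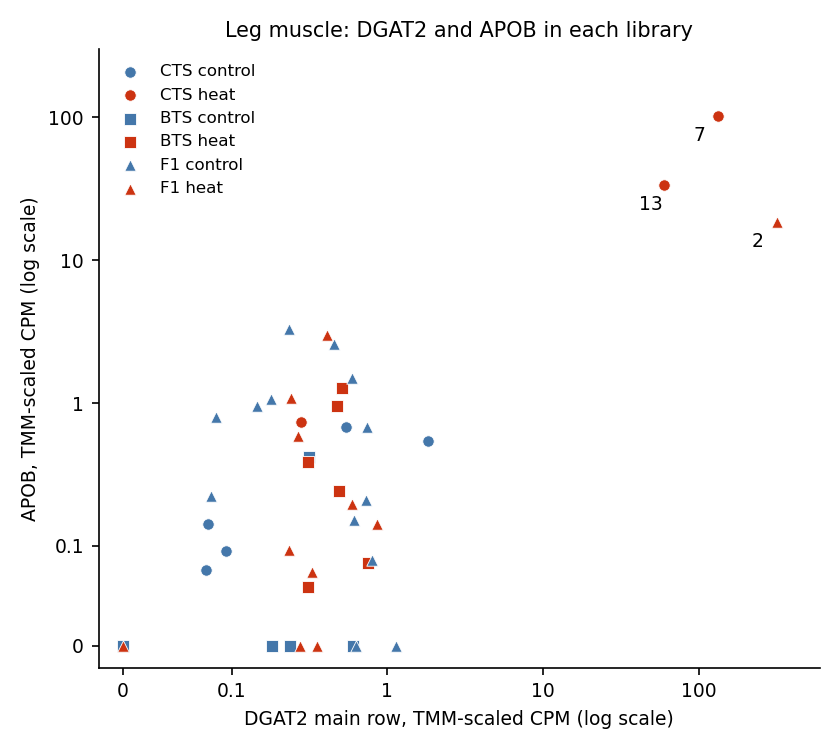
APOB against DGAT2 (main row) in each of the 45 leg muscle libraries of full depth, both in TMM-scaled CPM on log axes with 0 reads at the lower ends; marker shapes give the genotype and colours the treatment. Animals 2, 7 and 13 lie apart at 59.7 to 319 CPM of DGAT2 and 18.6 to 103 CPM of APOB, and the other 42 libraries form a cloud at or below 1.82 and 3.29 CPM.

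The muscle features most like DGAT2 over the 45 deep libraries were high in the same 3 animals. By Pearson's r of log2 CPM they were c4a.L (complement C4, r = 0.835), RBP4 (a carrier of retinol and one of the hepatocyte markers, 0.786), SATB1 (a chromatin organiser, 0.777), SCD (the desaturase that makes monounsaturated fatty acids, 0.769) and LOC102933150 (0.764). Their Spearman's rho was 0.226 to 0.349, far below r, since rank order among the other 42 libraries matched little. c4a.L had 44.2, 22.9 and 15.2 CPM in animals 2, 7 and 13 and at most 1.65 CPM elsewhere. RBP4 had 27.6, 24.1 and 27.7 CPM against 1.82 to 9.99 CPM, and SATB1 had 33.4, 88.4 and 54.9 CPM against 1.65 to 11.5 CPM. SCD had 215.7, 176 and 82.1 CPM against 5.76 to 43.6 CPM.

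The features most like APOB were c4a.L again (r = 0.802, rho 0.610), LOC108697262 (0.760), DGAT2 itself (0.759), LOC108703247 (0.736) and COL11A1, a fibrillar collagen chain (0.731). LOC108697262 was among the abundant muscle features and stood at 26007, 28174 and 37853 CPM in animals 2, 7 and 13 against 3686 to 11795 CPM in the other 42 libraries. These likenesses describe 45 libraries that share 3 extreme members. HoxC12, a Hox gene that was chosen after its values were seen, had 21.9, 23.7 and 18.8 CPM in the muscle of animals 2, 7 and 13 and at most 0.118 CPM in the others.

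In whole brain, by contrast, DGAT2 was steady and of similar level in every animal. The main row ran from 33.2 to 67.6 CPM over the 43 deep libraries (mean 52.1 ± 8.51, SD). Controls and heated animals had 50.9 ± 11.8 and 45.8 ± 8.79 CPM in CTS (n = 5 and 5), 54.5 ± 8.00 and 53.0 ± 6.96 CPM in BTS (n = 5 and 6), and 52.8 ± 9.55 and 53.1 ± 6.44 CPM in F1 (SD, n = 13 and 9 of full depth). The groups overlapped in each genotype, and no heated brain was above the highest control of its genotype. Over genotypes the difference after heat was -0.07 on the log2 scale (SE 0.09, edgeR adjusted p = 0.962), where 0.0968% of 15496 features were called. In CTS it was -0.14 (SE 0.17, adjusted p = 1), in BTS -0.06 (SE 0.16, adjusted p = 0.966) and in F1 0.00 (SE 0.12, adjusted p = 0.99998), with 0, 0 and 0.0516% of features called.

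The animals with high muscle values were not high in brain. Animals 2, 7 and 13 had 51.8, 40.3 and 36.3 CPM of DGAT2 in brain, and that of animal 13 was the lowest of the heated CTS brains. They had 0, 2 and 1 APOB reads there. The minor DGAT2 row ran from 2.19 to 9.72 CPM in brain (mean 5.22 ± 1.59, SD, n = 43), and heat changed it by 0.07 on the log2 scale over genotypes (SE 0.15, adjusted p = 1). The rows correlated with r = 0.635 over the 43 deep brain libraries. The brain features most like the main row were LOC102698167 (r = 0.806), rogdi-like (0.797) and LOC103079668 (0.793), and those most like the minor row were PCMTD2 (0.783), CDC42SE2 (0.713) and FAM122B (0.699).

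**Figure D4:**
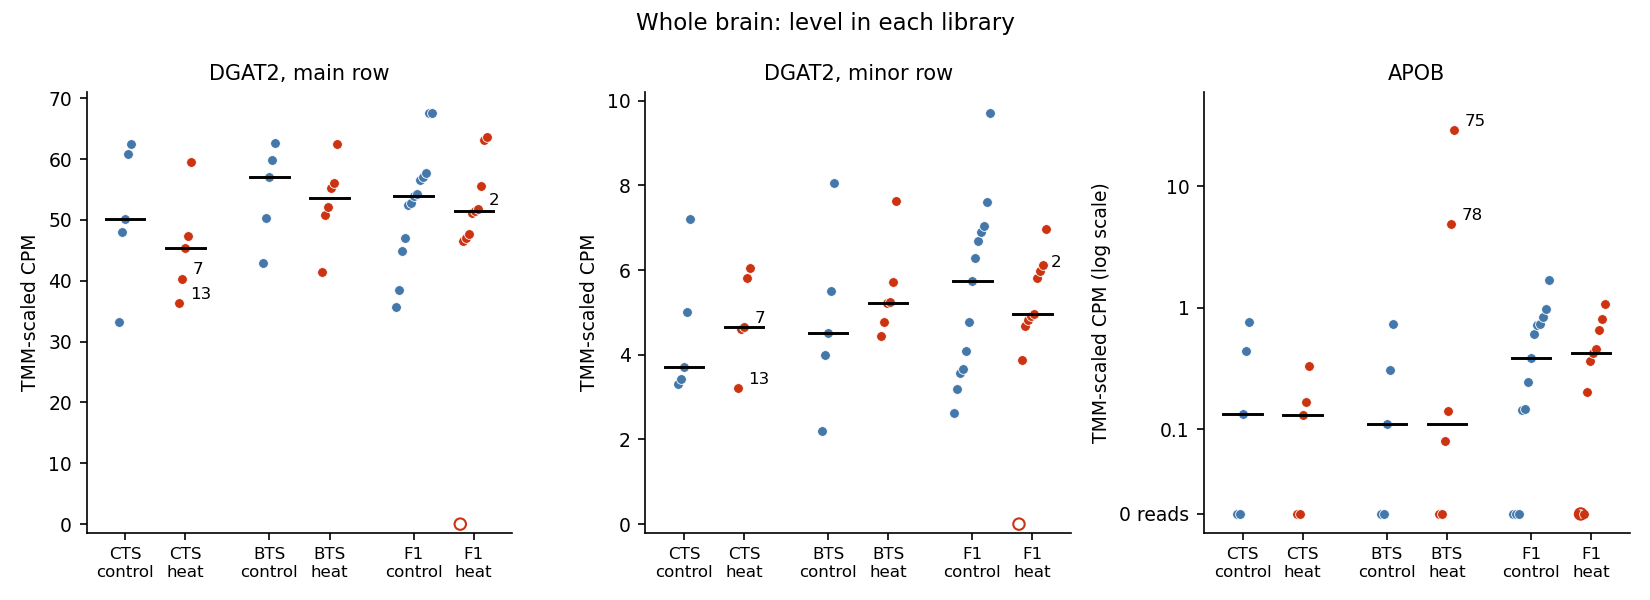
Level of the main DGAT2 row, the minor DGAT2 row and APOB in each whole brain library, in TMM-scaled CPM, by genotype and treatment; the APOB axis is a log axis with 0 reads at the bottom. Black bars are medians over libraries of full depth and open circles the shallow library of animal 16; the main DGAT2 row lies between 33.2 and 67.6 CPM in all 43 deep libraries, and APOB is above 1.71 CPM in the heated BTS animals 75 and 78 alone.

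APOB was nearly absent from brain and did not pass the filter on low counts there. It had 0 reads in 13 of the 43 deep libraries and at most 1.71 CPM in 41 of them. The exceptions were both heated BTS animals, animal 75 with 29.3 CPM (178 reads) and animal 78 with 4.91 CPM (16 reads), while the other 4 heated BTS brains had 0 to 0.142 CPM and the BTS controls 0 to 0.731 CPM. Log2 levels were compared within each genotype and between the genotypes of controls by two-sided permutation tests, 6 in all and exact where a group had under 10 libraries. The BTS difference after heat was 1.28 (exact permutation p = 0.463, adjusted 0.714, n = 6 and 5). The CTS difference was -0.27 (exact permutation p = 0.476, adjusted 0.714, n = 5 and 5) and the F1 difference -0.13 (permutation p = 0.709, adjusted 0.825, n = 10 and 13). The F1 value includes the shallow brain library of animal 16, where 3 reads are worth 554 CPM of the library total. It was -0.02 without that library, and it turned to 1.08 on CPM of the library total (permutation p = 0.256). Between controls the differences were -0.08 to 0.49 with adjusted p of 0.714 to 0.825 by the same permutation tests.

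The brain library of animal 75 held hepatocyte marker transcripts together with APOB. Of 28 hepatocyte marker features none was at 0 there, and by CPM of the library total 18 were higher than in any other deep brain library. Among them, after TMM scaling, fgb.S stood at 36.7 CPM against at most 3.98 CPM, fgg at 27.0 against 4.55 CPM, F2 at 17.5 against 1.36 CPM and vitronectin (VTN) at 17.0 against 1.93 CPM. The whole list summed to 1291 CPM of the library total in animal 75 and to 180 to 1914 CPM in the others. RBP4 made up most of the sum in animal 75, with 954 CPM, and ran from 120 to 1811 CPM over the deep brain libraries outside animals 2, 7 and 13. The sum therefore says little about the other hepatocyte features. In animal 78 no hepatocyte feature was the highest and 7 were at 0. Among the 42 libraries other than animal 75, it was the highest for AHSG (1.23 CPM), hpd (0.307 CPM) and a serpina1.L row (3.07 CPM). It had 2.46 CPM each of fgb.S and fgg, against medians of 0 and 0.175 CPM over those 42. These are TMM-scaled levels, and 3 reads in this library are worth 0.934 CPM of its total. The brain features most like APOB were one named only carbamoyl (r = 0.627), LOC109292414 (0.613) and serpina1.L (0.574), and carbamoyl had 81.0 CPM in animal 75 and 8.29 CPM in animal 78 against a median of 0.532 CPM. The part of liver RNA in this APOB level was not tested.

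Between tissues of control animals, DGAT2 was far higher in brain than in muscle. The main row differed by 6.12 on the log2 scale (SE 0.77, edgeR adjusted p = 1.76e-11) and the minor row by 6.42 (SE 0.85, adjusted p = 1.22e-10), averaged over genotypes. The control muscle levels belong to the contrast the pair was chosen on, and this fit also holds the heated libraries. The p-values between tissues are therefore not independent of that choice. The main row differed by 5.08 without the shallow libraries, by 4.91 in a fit to the compared groups only and by 4.88 with the animal as a block, and passed the test each time. Every control brain had at least 33.2 CPM of the main row and every control muscle at most 1.82 CPM. Tissue differences were the rule in the fit to all libraries, with 87.3% of 16288 features called and 70.2% called as higher in brain. Without the shallow libraries the minor row fell as well, to 5.67, and APOB moved the same way, so the shift was not particular to the main row. Its cause was not tested, and the shares called in that fit are not given here. APOB differed by -0.69 (SE 1.10, adjusted p = 0.554), and by -1.69 without the shallow libraries (adjusted p = 0.174). The muscle levels of DGAT2 in animals 2, 7 and 13 were thus in the span of the brain level or above it, with 319 CPM in animal 2 against 67.6 CPM in the highest brain, each scaled within its own tissue.

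No difference between genotypes passed the test for either gene in controls. In brain the main DGAT2 row differed by 0.12 between BTS and CTS (SE 0.17, adjusted p = 0.693), by 0.05 between F1 and CTS (SE 0.14, adjusted p = 0.946) and by -0.07 between F1 and BTS (SE 0.14, adjusted p = 0.836), all from edgeR. For these contrasts 19.1%, 6.35% and 6.3% of brain features were called. In muscle APOB differed by -1.04 (SE 2.34, adjusted p = 0.774), 1.69 (SE 1.49, adjusted p = 0.520) and 2.73 (SE 1.92, adjusted p = 0.394) in the same order, where 28.8%, 11.3% and 9.53% of features were called. The DGAT2 differences in muscle were 0.00 (SE 2.36), 0.34 (SE 1.98) and 0.34 (SE 2.04), with adjusted p from 0.946 to 0.9996. The muscle errors span several fold, so only large differences could have been seen in this fit. They also depend on the libraries fitted. For APOB in F1 minus BTS, edgeR gave 2.61 without animals 2, 7 and 13 (adjusted p = 0.149). A fit to the compared groups only gave 2.58 (adjusted p = 0.157). In such fits DGAT2 failed the filter in every muscle contrast of controls, and APOB failed it for BTS minus CTS. Those tests thus rest on a fit that also holds the heated libraries, whose levels the pair was chosen on. They cannot decide whether the genotypes differ.

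The backcross animals fell with the low majority in muscle and with all other animals in brain. As CPM of the library total, muscle DGAT2 was 1.22 in the BTSbc control 26, 0.459 and 0.434 in the heated BTSbc animals 12 and 30, and 0.372 in the heated CTSbc animal 84. Their muscle APOB was 0.0939, 0, 0.724 and 0.651 CPM. In brain they had 67.2, 53.3, 55.2 and 60.6 CPM of DGAT2 and 0, 0.145, 0.156 and 0.185 CPM of APOB.

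Over all deep muscle libraries APOB had a median of 0.0778 CPM in 14 males and 0.545 CPM in 31 females. The difference between the sexes did not pass the edgeR test over all libraries. It was -2.20 on the log2 scale for males minus females (SE 1.22, edgeR adjusted p = 0.564, 0.558% of features called). DESeq2 gave -3.32 (adjusted p = 0.0281, 1.51% called), and the added fit without animals 2, 7 and 13 gave -3.17 (adjusted p = 0.0191, 0.932% called). The added fit left out the 2 males with the highest APOB after their levels were seen, so its p cannot decide a sex difference. The edgeR and DESeq2 fits over all libraries include the heated muscle levels that the pair was chosen on. Their p-values therefore cannot decide it either. Without those 3 libraries the 12 males had 0 to 0.152 CPM, with no read in 6 of them and at most 2 reads in any. The 30 females had 0 to 3.29 CPM with a median of 0.483 CPM, and 21 of them were above the highest male that remained. With all deep libraries 0 of the 31 females were above the highest male. The 2 highest APOB levels of all muscle libraries, in animals 7 and 13, nevertheless belonged to males. DGAT2 differed between the sexes by -1.15 in muscle (SE 1.498, adjusted p = 0.864) and by -0.04 in brain (SE 0.09, adjusted p = 0.9999), where 0.0645% of features were called.

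No other feature of the lipid lists passed the test after heat. Of 167 genes in 8 lists, 128 had a feature of their name, and leaving out DGAT2 and APOB, 112 features were tested in muscle and 117 in brain. None was called as higher or lower in either tissue by edgeR or by DESeq2. Of all features edgeR called 0.757% in muscle and 0.0968% in brain, and DESeq2 1.39% and 0.22%. At shares this small, the lack of calls does not set the listed features apart from the rest. At an unadjusted p under 0.05 there were 17 in muscle and 5 in brain, and among all features 1418 of 12554 and 994 of 15496. The median log2 difference of the listed features was -0.03 in muscle and -0.01 in brain, beside -0.01 in both over all features. Over all features 6055 of 12554 were higher after heat in muscle and 7492 of 15496 in brain.

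In triglyceride synthesis, the pathway that ends with DGAT2, 6 of 18 other muscle features were higher after heat and the median was -0.07. The smallest p belonged to LPIN2, a phosphatidate phosphatase that makes the substrate of DGAT2 (-0.63, SE 0.23, adjusted p = 0.235), acsl4.L, which activates fatty acids (0.27, adjusted p = 0.286), and AGPAT3, an acyltransferase earlier in the pathway (0.27, adjusted p = 0.320), all by edgeR. The most abundant member, acsl1.S, differed by 0.00 (adjusted p = 1). The other enzyme of the DGAT2 reaction did not stand out in the 3 animals: the main dgat1 row had 37.9, 57.3 and 53.5 CPM in animals 2, 7 and 13 against 25.5 to 84.2 CPM in the others. GPAM, which starts glycerolipid synthesis, had 0.354, 0.953 and 1.71 CPM there against 0 to 4.54 CPM.

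Among the 8 other features of lipoprotein assembly tested in muscle, 4 were higher and the median was -0.03. MTTP, which loads lipid onto APOB, was no higher in the animals with APOB, with 1.06, 1.06 and 1.01 CPM in animals 2, 7 and 13 against 0 to 5.39 CPM in the others. PLTP, a phospholipid transfer protein of plasma, had the smallest p of the list (0.41, SE 0.26, adjusted p = 0.582 by edgeR) and was highest in the same animals, with 159.8, 66.9 and 59.7 CPM against 8.58 to 47.6 CPM. CETP and APOH differed by 0.31 and -0.13 (adjusted p = 0.697 and 0.808), and SAR1B, the most abundant, which serves the export of lipoproteins from the endoplasmic reticulum, by -0.11 (adjusted p = 0.905). In brain 0 of the 11 features of this list were higher under TMM scaling, with a median of -0.07 and none at an unadjusted p under 0.05, and 1 was higher under RLE scaling and in DESeq2.

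Of the receptors and lipases in muscle 11 of 13 were higher, with a median of 0.12. ANGPTL4, an inhibitor of LPL, differed by 0.69 (SE 0.28, adjusted p = 0.302), ABCA1, a cholesterol exporter, by 0.31 (SE 0.13, adjusted p = 0.303), and SORT1, the most abundant, by 0.07 (adjusted p = 0.898), by edgeR. LPL itself had 35.9, 104 and 29.3 CPM in animals 2, 7 and 13 against 5.76 to 83.9 CPM in the others. Lipid droplet genes had a median of 0.02 with 6 of 10 higher, but -0.16 with 4 of 10 higher without the 3 libraries. The main row of the droplet coat protein PLIN2 differed by 0.43 (SE 0.32, adjusted p = 0.660). It reached 48.1 CPM in animal 2, within the 1.65 to 52.3 CPM of the libraries other than animals 2, 7 and 13. Its other row differed by -0.42 (SE 0.36, edgeR adjusted p = 0.713). The triglyceride lipase pnpla2.L, the most abundant of the list, differed by -0.26 (SE 0.15, adjusted p = 0.527).

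In fatty acid synthesis SCD and mid1ip1 were highest in the 3 animals and acaca in 2 of them, animals 7 and 13, and none passed the test over all animals. SCD differed by 0.96 (SE 0.38, adjusted p = 0.286), mid1ip1, an activator of acetyl-CoA carboxylase, by 0.77 (SE 0.25, adjusted p = 0.142) and acaca, that carboxylase, by 0.48 (SE 0.19, adjusted p = 0.272), by edgeR. mid1ip1 had 129, 57.5 and 269 CPM in animals 2, 7 and 13 against 11.1 to 54.0 CPM in the others, and acaca 23.4, 31.3 and 30.4 CPM against 1.68 to 27.3 CPM. Over the whole list 10 of 18 features were higher with a median of 0.01, which was -0.0033 under RLE scaling and -0.07 without the 3 libraries.

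In fatty acid oxidation 1 of 20 muscle features was higher after heat and the median was -0.23, with 5 at an unadjusted p under 0.05 and none called. The median was -0.23 under RLE scaling and in DESeq2 as well. Without the 3 libraries it was -0.14, with 3 of 20 higher and 1 at an unadjusted p under 0.05. ETFA and ETFDH, which pass electrons from fatty acid oxidation to the respiratory chain, differed by -0.38 and -0.30 (adjusted p = 0.309 and 0.351 by edgeR). hadha.S, of the mitochondrial trifunctional protein, had 297, 192 and 251 CPM in animals 2, 7 and 13, below the 302 to 1036 CPM of every other deep library. FABP3, the fatty acid binding protein of muscle, had 752, 231 and 305 CPM against 572 to 2756 CPM, and its list had a median of -0.10 with 3 of 6 features higher. In cholesterol synthesis 9 of 19 were higher with a median of -0.08, where HMGCS1 differed by -0.40 (adjusted p = 0.322) and LSS by 0.56 (adjusted p = 0.379).

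**Figure D5:**
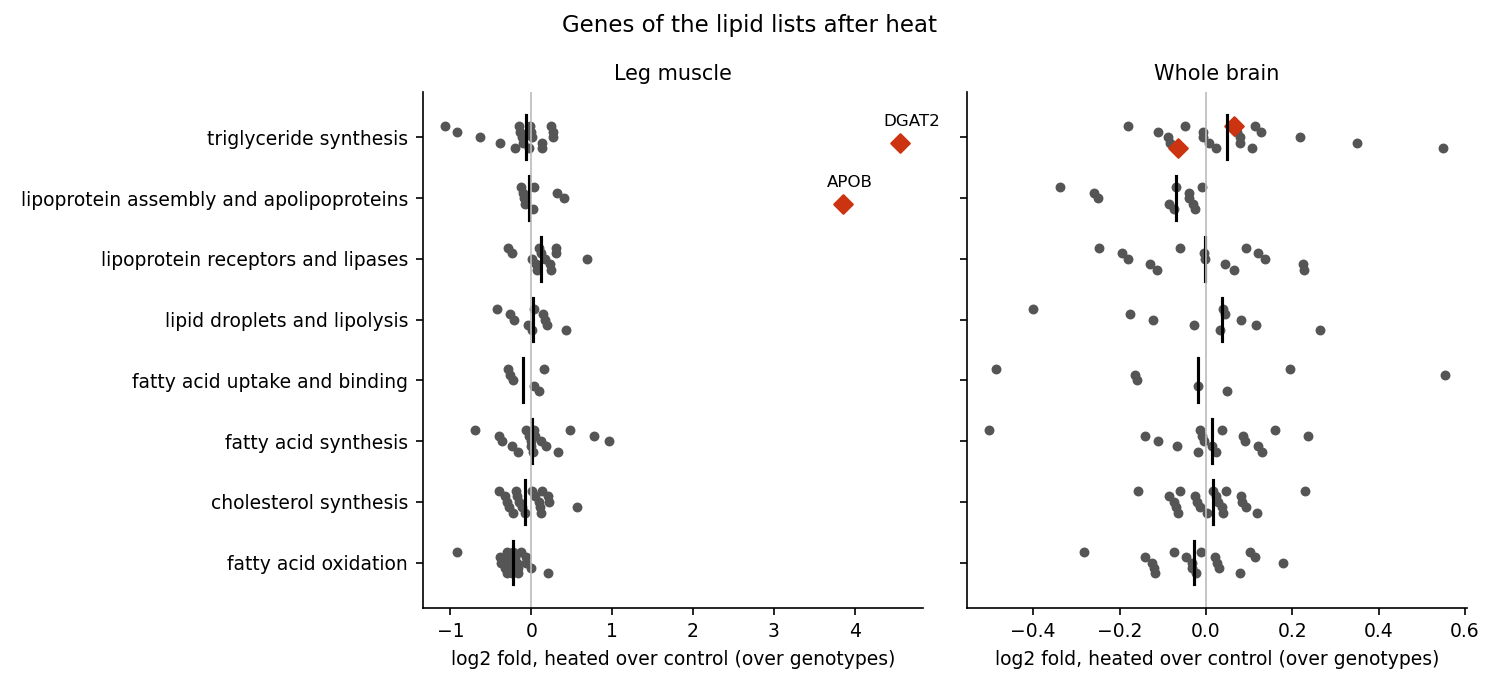
Log2 difference of heated over control animals, averaged over genotypes, for each tested feature of 8 lipid lists in leg muscle and in whole brain, with a different x scale in each panel. Grey points are features, black bars the medians of each list without DGAT2 and APOB, and red diamonds DGAT2 and APOB; in muscle DGAT2 at 4.57 and APOB at 3.86 lie far to the right of the list medians, which run from -0.23 to 0.12.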

How the data were processed

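Poly(A) RNA of whole brain and leg muscle was extracted with TRIzol and PureLink columns, made into stranded Kapa libraries and sequenced as single reads of 100 bp, per the labels' protocols. The authors deposited read counts per feature, not normalized. Trimmomatic, FastQC, STAR and HTSeq are named in the submitters' processing notes. Tool versions, counting settings and a genome build were found in none of the sources used here. The labels list 99 samples and the tables hold 98 columns, each matched to 1 sample by name. Of F1 animal 17 the muscle alone was used, and its brain was not analysed here. Genotype, treatment and sex came from the tags. No 2 libraries of a group agreed within sampling noise (159 brain and 178 muscle pairs, lowest chi-square per degree of freedom 8.33 and 10.3).

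DGAT2, APOB and all lists were chosen with earlier results of these data known. Each tissue was fitted with edgeR 4.0.16 in R 4.3.3 (TMM, filterByExpr on the group, quasi-likelihood test, group and sex in the model, threshold 0.05 after Benjamini-Hochberg adjustment, two-sided). This left 15496 brain and 12554 muscle features, and 16288 in a joint fit of both tissues. Standard errors were derived from the fold and its F statistic. The fitting code was tested on simulated counts. APOB failed the filter in brain and was compared there by permutation of log2 CPM (prior count 2, exact or 100000 resamples). The minor DGAT2 row failed it in muscle. Marker sums and backcross levels are CPM of the library total, and other levels are TMM-scaled CPM. Levels were not compared between genes, since no lengths were at hand.

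Genes named beside the members were, of each list, the 3 with the smallest p in muscle after heat and the most abundant, and the 5 muscle and 3 brain features most like each member by Pearson's r. Pathway partners of DGAT2 and APOB and single marker genes were named because of their role. Some genes covered by these choices are not reported here. Animal numbers in the titles pair the tissues. Deviations from group means correlated within 42 shared animals with a mean r of 0.158, at the lowest -0.0850 and over 0.1 in 25, and -0.00365 between animals. Alternatives were DESeq2 1.42.0, RLE scaling, no filter, a strict filter (1 CPM in 5 libraries), no sex term, fits to the compared groups only, each CTS or BTS library and, for the muscle folds, each F1 library left out, animals 64 or 76 or the shallow libraries left out, the muscle controls 63, 68 and 25 left out, the animal as a block, another prior count and CPM of the library total.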

Additional observations from a re-analysis of the deposited data

Results flagged for a closer look

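Levels of each gene were looked at for single libraries far from the rest of their group in 27 groups of 4 to 10 libraries, of which chance picks about 1 in 20, and 6 such values were found. APOB in the heated BTS brain of animal 75 was 29.3 CPM, while the other 5 libraries of the group had 0 to 4.91 CPM. The main and minor DGAT2 rows were both at 0 in the heated F1 brain of animal 16, whose library held 5418 counted reads in all. APOB in BTS control muscle was 0.420 CPM in animal 60 (4 reads) and 0 in the other 4. The CTS control muscle of animal 66 had 1.82 CPM of the main DGAT2 row (10 reads) and 0.363 CPM of the minor row (2 reads), the highest control values of both rows. The high muscle libraries of animals 2, 7 and 13 do not appear here because the heated CTS group holds 2 of them and the heated F1 group is larger than the groups looked at.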

How the results depend on the processing

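No tested difference between groups for the main DGAT2 row changed its side of the threshold under any alternative run, and the differences that changed sign were smaller than the standard errors given with the reported values. The main row in brain after heat took values of 0.026 (RLE scaling) and 0.023 (DESeq2) in BTS, and in F1 -0.029 (RLE), -0.018 (no filter), -0.0031 (no sex term), -0.025 (DESeq2), -0.028 (without animal 64), -0.00017 (without animal 76) and -0.0054 (only the groups compared). Its brain F1 minus BTS difference was 0.044 (RLE) and 0.041 (DESeq2). The minor row in brain took -0.033 (RLE), -0.026 (DESeq2) and -0.023 (only the groups compared) for BTS minus CTS and -0.052 without animal 76 for CTS after heat. In muscle controls DGAT2 gave -0.170 (RLE), -0.0032 (strict filter), -0.364 (no sex term), -0.835 (DESeq2), -0.189 (without animal 64) and -0.596 (without animals 2, 7 and 13) for BTS minus CTS, and -0.011 in DESeq2 for F1 minus CTS. APOB in F1 brain after heat was 1.08 on CPM of the library total (permutation p = 0.256). The APOB sex difference in muscle passed in DESeq2 (-3.32, adjusted p = 0.0281) and without animals 2, 7 and 13 (-3.17, adjusted p = 0.0191). The latter edgeR fit left out the males with the highest APOB, animals 7 and 13, so its p cannot decide that difference. The DESeq2 fit includes heated levels that the pair was chosen on, so its p cannot decide it either. The correlation of DGAT2 with APOB in heated F1 muscle passed with a prior count of 0.5 (0.737, permutation, adjusted p = 0.0479, against 0.788 and 0.0783). It draws on values the pair was chosen on, so neither p can decide that relation. Features called after heat numbered 95 in muscle, 160 with no filter, 174 in DESeq2, 9 without the controls of animals 63, 68 and 25 and 8 without animals 2, 7 and 13, and in brain 15, or 34 in DESeq2. Without animals 2, 7 and 13, an alternative chosen after seeing the data, the folds were -0.61 (DGAT2) and 0.42 (APOB) over genotypes, -2.25 and -0.070 in CTS, and -0.28 for DGAT2 in F1. The heated CTS libraries left then had at most 0.277 CPM of DGAT2. The cause of these shifts was not tested.

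With single libraries left out in turn (every CTS and BTS library, and F1 libraries for the muscle folds), muscle features called ran from 12 (without BTS control 68) to 180 (without BTS control 80). They were 24, 56, 62, 63, 45, 163 and 55 without CTS heat 7, 13 or 14, F1 heat 2, CTS control 63, BTS control 74 or BTS heat 90. Brain features called ran from 10 to 24, the last without BTS heat 53. The DGAT2 muscle folds ran from 2.11 to 4.92 over genotypes, from -0.46 to 5.90 in F1 and from -0.26 (without BTS heat 90) to 0.70 in BTS. The APOB BTS fold ran from 1.12 to 4.53, the last without BTS control 60, when all BTS controls were at 0. The DGAT2 differences between controls ran in muscle from -0.40 to 1.16 (BTS minus CTS) and from -0.072 to 1.52 (F1 minus CTS), and in brain from -0.12 to 0.0045 (F1 minus BTS) and from -0.05 to 0.18 (F1 minus CTS). The main row in brain after heat ran from -0.10 to 0.022 in BTS and from -0.0019 to 0.0080 in F1. The minor row in brain ran from -0.16 to 0.37 (BTS minus CTS), from -0.05 to 0.35 (CTS after heat) and from -0.039 to 0.10 (males minus females). APOB ran from -0.35 to 0.18 between BTS and CTS control brains and from -0.99 to 0.23 between control brain and muscle. With the animal as a replicate block (21 control animals with both tissues), brain exceeded muscle by 4.88 for DGAT2 and 5.45 for the minor row, and APOB differed by -1.84 (adjusted p = 0.0511); the block changed no call. Neither DGAT2 nor APOB in muscle after heat could be fitted on the compared groups alone, because they failed the filter there. The same held for DGAT2 in all muscle contrasts of controls and for APOB in BTS minus CTS. Of 453 alternative values outside the single left-out libraries, 417 kept their direction and their side of the threshold, or, where there was no test, moved by less than the spread between libraries.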
